A study of Mus musculus with 4 samples.

Results

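The genes described here encode the proteins by which cells hold on to each other and to the matrix: integrins and their cytoplasmic adaptors, cadherins, protocadherins and catenins, the tight junction and gap junction proteins, and the tetraspanins Cd9 and Cd151. They were taken by gene symbol alone, without use of any measured value, and 70 of the 9114 genes of the deposited table bear such a symbol. The mouse annotation holds 212 protein-coding genes with symbols of this kind, and those outside the 70 are not analysed here. Among the latter are Esam, Ocln, Jam2, Ptk2, Tln2, Cdh1 and the connexin gene Gja4.

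Lymphatic endothelial cells had been isolated from the brain coverings (meninges) of old C57BL/6J males, 20 to 24 months of age, and sorted by flow cytometry as live singlets without CD45 and with CD31 and podoplanin. All animals had been injected 4 weeks earlier, through the cisterna magna, with 5 µL of AAV1, an adeno-associated viral vector. In the mVEGF-C group the virus carried mouse vascular endothelial growth factor C under the CMV promoter, a viral promoter that is active in many cell types, and in the eGFP group it carried enhanced green fluorescent protein under the same promoter. No group without virus is included. Each of the 4 libraries, 2 per group, was made from a pool of 10 mice, so that the spread between animals within a pool is not seen, and all RNA was amplified linearly before library construction.

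Lymphatic vessels take up fluid and cells through initial vessels whose endothelium is joined by discontinuous, button-like junctions, and carry them on through collecting vessels with continuous, zipper-like junctions and valves. Both kinds of junction contain VE-cadherin (Cdh5), bound inside the cell to catenins, and tight junction proteins such as claudins and the zonula occludens scaffolds. Integrins are pairs of an alpha and a beta chain that bind matrix proteins outside the cell and, through talins, kindlins and the complex of integrin-linked kinase with parvins, the actin cytoskeleton inside it. In lymphatic endothelium the alpha chain Itga9 is known for its part in valve formation, and integrins with the beta chain Itgb1 are known to cooperate with the VEGF-C receptor.

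The libraries held between 25610683 and 28632461 reads on the genes of the table. All 12 markers of lymphatic endothelium were present in every library, the sort marker Pdpn at 3053 to 4144 normalised counts and Prox1, the regulator of lymphatic identity, at 34631 to 47743. Transcripts of other cells were present too: 8 of 12 meningeal fibroblast markers had a value, with summed levels of 88262 and 45591 in the eGFP and 92061 and 59160 in the mVEGF-C libraries. For mural cells 5 of 12 markers had a value, summed to 28796 and 22693 in eGFP and 18064 and 13248 in mVEGF-C libraries. A difference in a gene's level in such bulk samples cannot separate fewer cells of a type from less RNA per cell. Normalised counts are reads divided by one factor per library. Fold changes are differences of log2(normalised count + 1), mVEGF-C minus eGFP, and a gene is called when its Benjamini-Hochberg adjusted p in limma, over 9063 genes, is under 0.05.

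The sequence upstream of 2 of these genes is shown because they encode the 2 chains of the fibronectin receptor, of which the alpha chain had the largest positive difference among the integrins while the beta chain, shared with other alpha chains, showed none beyond its spread. Each run is the 250 bases before the RefSeq start of the gene on GRCm38.p6, written in the direction of transcription, with matches to the GC box GGGCGG on either strand in capitals.

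Itga5 (chr15:103366792-103367041, minus strand): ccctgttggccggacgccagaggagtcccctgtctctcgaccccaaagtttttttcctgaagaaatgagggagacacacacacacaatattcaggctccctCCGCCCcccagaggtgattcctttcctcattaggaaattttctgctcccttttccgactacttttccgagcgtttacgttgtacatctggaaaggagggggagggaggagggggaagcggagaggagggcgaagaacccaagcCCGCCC

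Itgb1 (chr8:128685404-128685653, plus strand): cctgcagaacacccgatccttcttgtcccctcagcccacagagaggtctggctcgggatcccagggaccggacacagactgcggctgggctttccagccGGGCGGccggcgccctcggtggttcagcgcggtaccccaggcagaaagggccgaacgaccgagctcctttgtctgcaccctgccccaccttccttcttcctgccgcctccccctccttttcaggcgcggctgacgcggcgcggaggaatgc

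The GC box, bound by Sp-family factors, was found at 149 and 6 bases before the start of Itga5, both on the opposite strand, and at 151 bases before that of Itgb1. It is held by 33.0% of the 32536 upstream windows of this length in the RefSeq table. The ETS motif CCGGAAG (6.95% of windows) and the TATA motif TATAAA (12.3%) were not found in either window. These are matches of letters only. Of the 70 genes, 45 had an entry in that table.

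VEGF-C delivery was followed by few called differences in this gene group. The limma p-values rest on the spread typical of genes at a similar level, not on a gene's own replicates. A difference that was not called may therefore still exceed the spread of its own replicates. All 70 genes passed the filter on low values; 0 were called higher and 1, the protocadherin gene Pcdh1, was called lower in the mVEGF-C libraries (limma). That is 1.43% of the group, against 0.828% of all genes called higher and 1.31% called lower. The share of the group called was thus near the background. At an unadjusted p under 0.05 there were 8 of the 70 genes (11.4%), 4 in each direction, against 11.8% of all genes. The lower mVEGF-C value exceeded the higher eGFP value for 15 genes (21.4%, against 19.4% of all genes), and the reverse order without overlap held for 13 (18.6%, against 19.8%). For the other 42 the groups overlapped. Fold changes were above 0 for 32 genes and below 0 for 38, with a median of -0.09 against -0.02 over all genes and a median size of 0.75 against 0.79. The sign of that median rested on single libraries, since leaving out eGFP 1, mVEGF-C 1 or mVEGF-C 2 gave 0.11, 0.04 and 0.08.

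**Figure D1:**
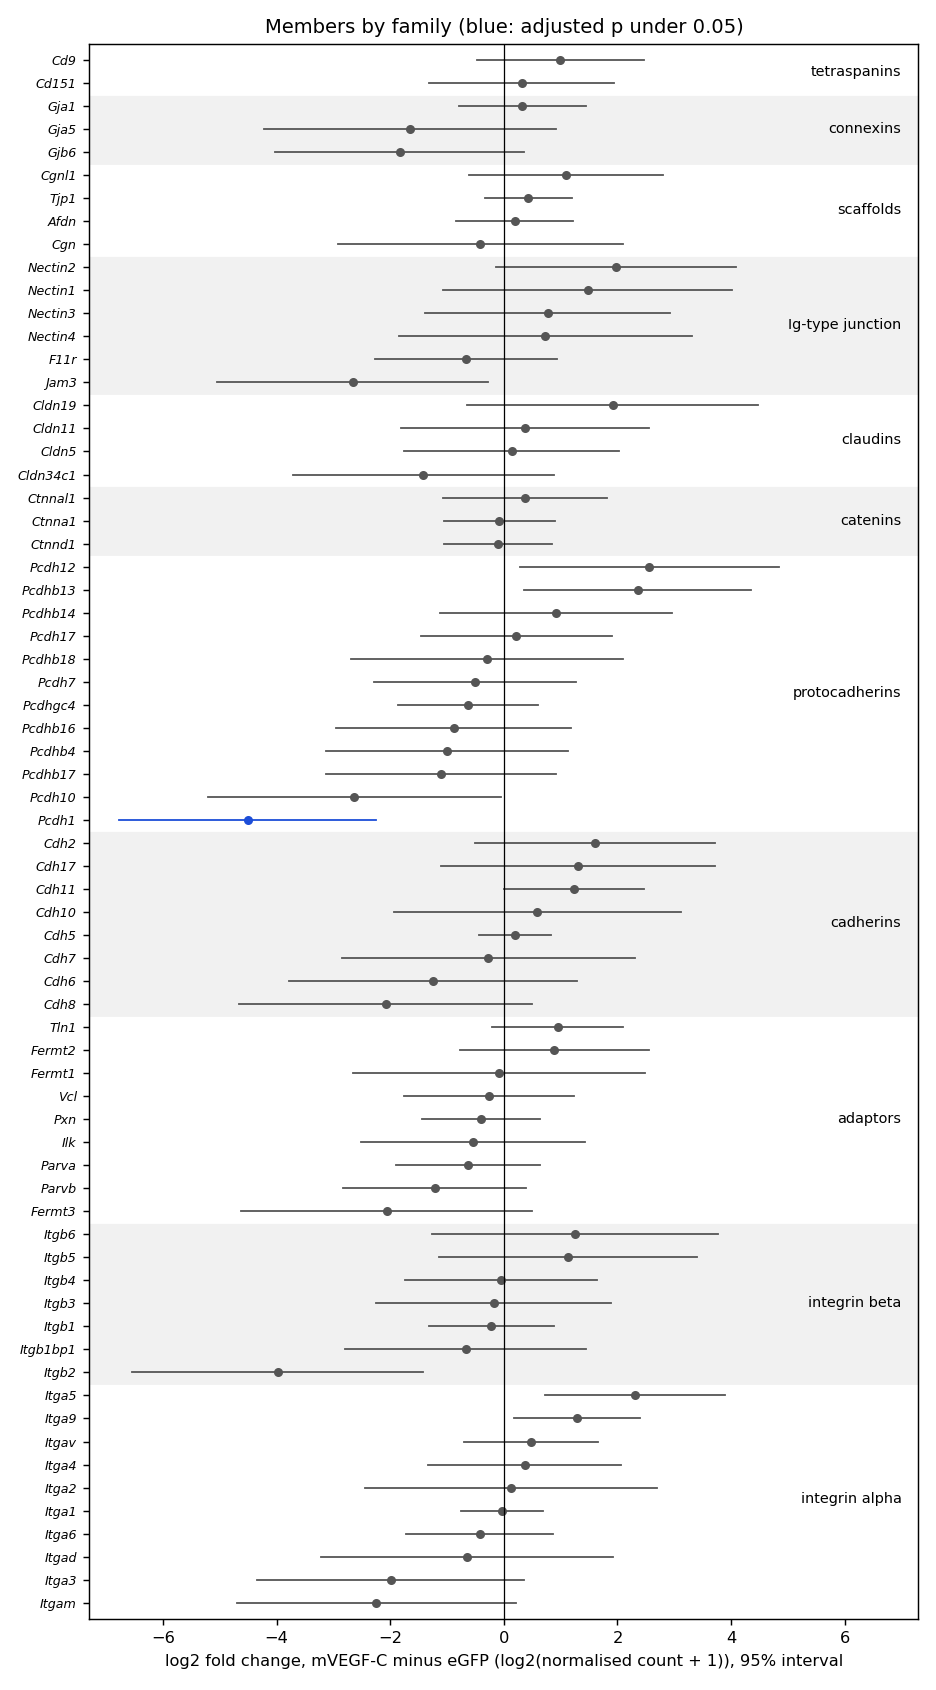
Log2 fold change (horizontal axis, mVEGF-C minus eGFP) of 68 of the 70 genes, grouped by family, with 95% intervals from limma as horizontal lines. Pcdh1, in blue at -4.51, is the 1 gene called; most intervals cross 0.

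Replicates differed as much as the groups did. The 2 eGFP libraries differed by a median of 1.60-fold over the 70 genes and the 2 mVEGF-C libraries by 1.99-fold, against 1.92-fold and 2.10-fold over all genes. For 54 of the 70 the larger gap between replicates exceeded the difference between the group means. The share of all genes with such a gap was not counted, so nothing particular to this group can be read from it. The count of 54 set gaps of log2(reads + 1), not divided by the library factor, against differences of log2(normalised count + 1). Genes with close values may therefore be counted, or missed, through library depth alone. The library mVEGF-C 1 was the extreme one most often, with the highest of the 4 values for 23 genes and the lowest for 24. The 43 genes with a mean level of at least 1000 had a median absolute fold change of 0.51 and the 27 below that level 1.42, on the log2 scale, against 0.62 and 0.99 over all genes. Over the whole table the 2 libraries of a group differed by no more than 2.83 (eGFP) and 4.24 (mVEGF-C) on the scale of log2(reads + 1) for any gene, while gaps between the groups reached 10.69. That an upper limit on the replicate spread was applied before deposit is inferred from these values and is not stated in the labels. With such a limit, p-values would be too small by an unknown amount. Genes without a value may have been removed by it rather than been absent from the cells. Counts and sums of markers with a value are therefore incomplete as measures of other cells.

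Pcdh1 (chromosome 18, 38185914 to 38212053, minus strand) encodes a protocadherin, a cadherin-like adhesion protein known from airway epithelium. Its normalised counts were 3207 in eGFP 1, 2309 in eGFP 2, 249 in mVEGF-C 1 and 55.7 in mVEGF-C 2. Both eGFP libraries were far above both mVEGF-C libraries, and the latter differed from each other more than the former. The means were 2758 ± 635 and 152 ± 137 (SD, n = 2 each), an 18.1-fold lower mean, and the fold change on the log2 scale was -4.51 ± 1.16 (SE, limma adjusted p = 0.00931). The noncoding 2010320O07Rik overlaps the start of Pcdh1 on the other strand and is not analysed here, and with the strand setting unknown its reads could not be told from those of Pcdh1. The smallest gap between 2 libraries of different groups was 3.21 on the scale of log2(reads + 1), above the largest gap of the eGFP pair over all genes (2.83) and below that of the mVEGF-C pair (4.24). Both of these largest gaps would be fixed by the limit on replicate spread inferred above, if it was applied. Exceeding 2.83 is therefore no support for the Pcdh1 difference. The call was lost without eGFP 1 (fold change -4.28, limma adjusted p = 0.319), without eGFP 2 (-4.75, adjusted p = 0.456) and without mVEGF-C 2 (-3.45, adjusted p = 0.0877), and with all libraries in limma without a variance trend (adjusted p = 0.0842). Without mVEGF-C 1 it held (-5.58, limma adjusted p = 0.00295). It also held in edgeR and DESeq2 (adjusted p = 0.0399 and 0.000308). Among the markers of other cells, Ttr, the leading transcript of choroid plexus epithelium, was called lower as well, from 3947 and 19584 in eGFP to 512 and 824 in mVEGF-C libraries (limma, adjusted p = 0.00306). The epithelial list, of which 3 of 10 markers had a value, summed to 19782 and 51360 in eGFP and 19567 and 20106 in mVEGF-C libraries. These sums overlapped, and most of each was Aqp1, at 15822 and 31762 in eGFP and 19054 and 19275 in mVEGF-C libraries (-0.23). The mural sums given above were lower in both mVEGF-C libraries. Of the 5 mural markers with a value 4 stood below 0 and 1, Pdgfrb, above it (0.94). The part of such cells in the Pcdh1 result was not tested.

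**Figure D2:**
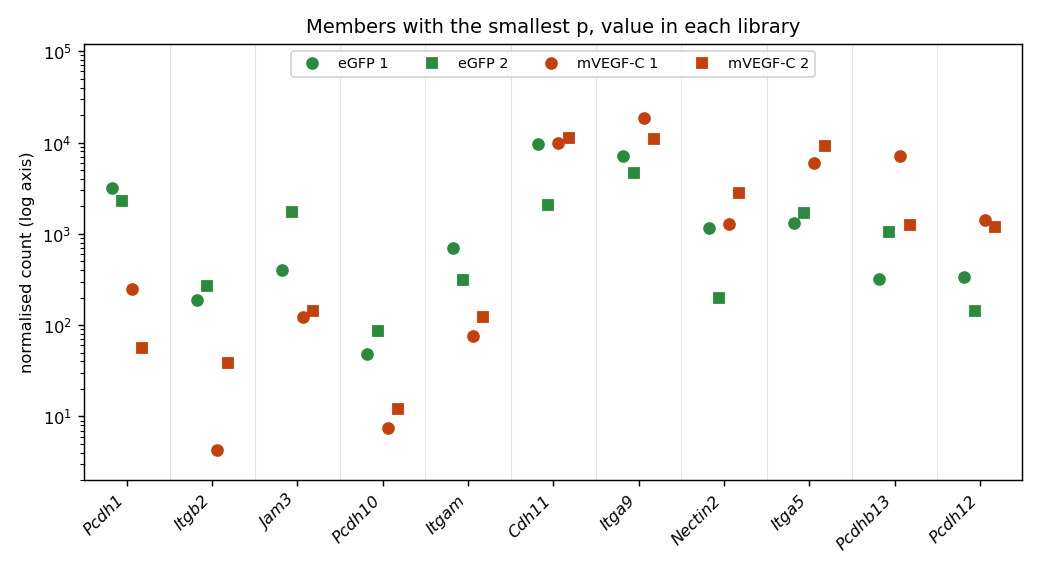
Normalised count (vertical log axis) of 11 of the 12 genes with the smallest p in each of the 4 libraries, ordered by fold change. Green marks eGFP and orange mVEGF-C libraries, circles replicate 1 and squares replicate 2. The gap between the colours is wide for Pcdh1 and narrow for Cdh11 and Pcdhb13.

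Among the other protocadherins, Pcdh12 (chromosome 18, 38267089 to 38284402, minus strand), which encodes an endothelial protocadherin also known as VE-cadherin-2, differed in the other direction. It had 338 and 143 normalised counts in eGFP and 1419 and 1200 in mVEGF-C libraries, without overlap. The difference of 2.56 ± 1.16 (SE) was not called (limma, adjusted p = 0.317). Pcdh10 was low throughout, at 48.4 and 85.5 in eGFP and 7.48 and 12.1 in mVEGF-C libraries, which is 7 and 13 reads in the latter (fold change -2.63, limma adjusted p = 0.407). The more abundant Pcdh7 and Pcdh17 overlapped between the groups, at -0.51 and 0.22.

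The protocadherins of the beta and gamma clusters on chromosome 18 share sequence with their neighbours, so that reads may have been split among them. Of the 7 such genes, Pcdhgc4 had the highest level, with 9504 and 7922 normalised counts in eGFP and 3306 and 9450 in mVEGF-C libraries (fold change -0.63 ± 0.63, SE, limma adjusted p = 0.81). The library mVEGF-C 1 alone was low. Pcdhb13 had 321 and 1045 in eGFP and 7080 and 1243 in mVEGF-C libraries (2.36 ± 1.02, SE, limma adjusted p = 0.274). Its neighbour Pcdhb14 had the same high library, with 4288 in mVEGF-C 1 against 602 to 1079 in the others. Without mVEGF-C 1 the fold change of Pcdhb13 was 1.10. The remaining Pcdhb4, Pcdhb16, Pcdhb17 and Pcdhb18 had fold changes from -1.10 to -0.29. Of all 12 protocadherins 4 stood above 0 and 8 below, and the median was -0.57.

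Cdh5, the cadherin of endothelial adherens junctions, had the highest level of the 70 genes, in counts and per length of exon sequence. It ranked 45 among all genes and had 29720 and 29463 normalised counts in eGFP and 30880 and 37124 in mVEGF-C libraries. Both mVEGF-C libraries were above both eGFP libraries, by little. Cdh5 lies on chromosome 8 (104101625 to 104144511, plus strand). Its log2 fold change was 0.19, with a 95% interval from -0.43 to 0.82 (adjusted p = 0.913 in limma). Per kilobase of exon, Cdh5 made up 85.3% and 93.8% of the summed cadherin level in eGFP and 80.5% and 85.9% in mVEGF-C libraries.

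Cdh11, a cadherin of mesenchymal cells, was the next most abundant cadherin. It had 9586 and 2073 normalised counts in eGFP and 9773 and 11276 in mVEGF-C libraries, so that eGFP 2 stood apart from the other 3. The fold change was 1.24 ± 0.63 (SE, limma adjusted p = 0.426) and was 0.13 without eGFP 2. Of the 8 fibroblast markers with a value, 4 were lowest in eGFP 2 (Col1a1, Col1a2, Col3a1 and Igf2), Dcn, Pdgfra and Mgp were lowest in mVEGF-C 2, and Foxc1 was highest in eGFP 2. The part of fibroblast RNA in the level of Cdh11 was not tested. Cdh2, the N-cadherin of mesenchymal and mural cells, ranged from 216 (eGFP 1) to 4160 (mVEGF-C 1), with overlapping groups. The other 5 cadherins, Cdh6, Cdh7, Cdh8, Cdh10 and Cdh17, had mean levels between 20.0 and 313, and none was called.

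Catenins tie cadherins to actin and hold them at the surface, and the groups overlapped for Ctnnd1 and Ctnna1. Ctnnd1, the catenin that binds the membrane-near part of cadherin tails, had 10812 and 17135 normalised counts in eGFP and 10534 and 15367 in mVEGF-C libraries, with replicate 2 the higher in both groups. Its fold change was -0.10, with a 95% interval from -1.05 to 0.85 (adjusted p = 0.978 in limma). Ctnna1, the actin-linking alpha-catenin, had 10431 and 15097 against 16536 and 8537 (-0.08), and the related Ctnnal1 stood at 0.37. In a list of 28 further adherens junction and desmosome genes, chosen with earlier results of these data known, 20 were tested and 0 were called, with 12 above 0 and a median of 0.25. Jup (plakoglobin), which can take the place of beta-catenin on cadherin tails and is itself part of desmosomes, had the smallest p of the list. It had 7301 and 1440 normalised counts in eGFP and 14953 and 8221 in mVEGF-C libraries (1.77 ± 0.66, SE, limma adjusted p = 0.162), again without overlap. Second was Ptprb, the endothelial phosphatase of VE-cadherin, at 23640 and 55861 against 22533 and 25954 (-0.59, limma adjusted p = 0.512). Only its eGFP 2 value stood apart. Ctnnb1, beta-catenin itself, named here after its values were seen, had 7061 and 12028 against 3668 and 5434, without overlap (-1.05, limma adjusted p = 0.577).

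Tight junctions and related cell contacts were represented by 4 claudins, 6 immunoglobulin-type adhesion genes and 5 scaffold genes, none of them called. Cldn5, the main endothelial claudin, varied more within than between the groups. It had 2008 and 1311 normalised counts in eGFP and 684 and 4652 in mVEGF-C libraries, so that the mVEGF-C pair held both the lowest and the highest value. The fold change was 0.14, with a 95% interval from -1.75 to 2.03 (adjusted p = 0.987 in limma), and its sign turned without mVEGF-C 2, at -1.25. Cldn11, a claudin of the arachnoid barrier and of myelin, had 1494 and 309 against 2340 and 333, with replicate 1 the higher in both groups. Dpp4, the 1 other arachnoid barrier marker with a value, had 612 and 699 against 940 and 109. Cldn34c1 and the low Cldn19 stood at -1.42 and 1.92.

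Of the immunoglobulin-type genes, Jam3, a junctional adhesion molecule, had the smallest p. It had 400 and 1755 normalised counts in eGFP and 122 and 142 in mVEGF-C libraries. The groups did not overlap, and the eGFP libraries differed from each other 4.39-fold. The difference was -2.66 ± 1.22 (SE, limma adjusted p = 0.321), -1.60 without eGFP 2, and DESeq2 called it (adjusted p = 0.0197). F11r, the related adhesion molecule JAM-A, had 4045 and 3966 in eGFP and 1471 and 4295 in mVEGF-C libraries. Only mVEGF-C 1 was low, and the fold change of -0.67 (limma, adjusted p = 0.864) became 0.10 without it. The nectins bind afadin (Afdn) and start cell contacts ahead of cadherins. All 4 stood above 0, from 0.73 for Nectin4 to 1.98 for Nectin2, and none was called. The low Nectin1 and Nectin4 did so through 1 mVEGF-C library each. Nectin1 had 39.4 and 54.5 in eGFP and 39.5 and 426 in mVEGF-C libraries, and Nectin4 had 40.3 and 13.9 against 138 and 11.1. Nectin2 had 1170 and 198 in eGFP and 1270 and 2831 in mVEGF-C libraries (limma, adjusted p = 0.486), with eGFP 1 and mVEGF-C 1 close together. Nectin3 had 701 and 579 against 1299 and 910, without overlap.

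Among the scaffold genes Tjp1 and Afdn had the highest levels. Tjp1, the zonula occludens scaffold that links tight junctions to actin, ranked next to Cdh5 per exon length. It had 16937 and 19229 normalised counts in eGFP and 30457 and 19467 in mVEGF-C libraries, with mVEGF-C 2 just above eGFP 2. The fold change was 0.43, with a 95% interval from -0.34 to 1.20 (adjusted p = 0.779 in limma). Afdn lay between 9037 and 11876 in the 4 libraries (0.19). Cgnl1 (paracingulin), a junctional scaffold protein, had 2075 and 1474 against 4298 and 3238, without overlap (1.09, limma adjusted p = 0.729).

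**Figure D3:**
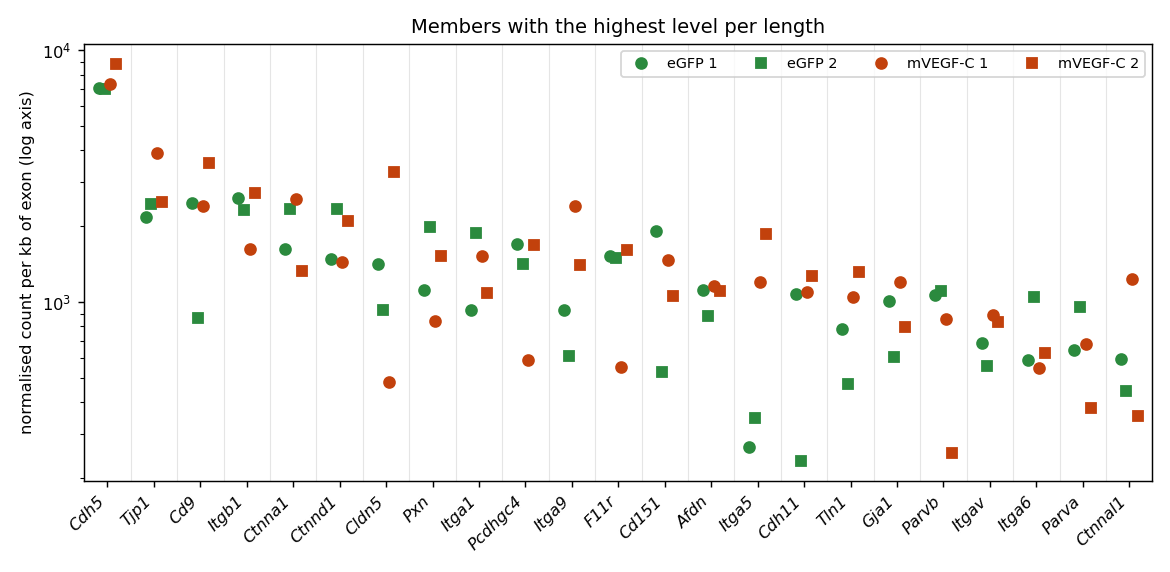
Normalised count per kilobase of exon (vertical log axis) of 23 of the 24 genes with the highest level per length, in each library, in falling order of the mean. Cdh5 is highest and its 4 libraries lie close together, while Cldn5, Itga5 and Cdh11 spread widely.

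Gap junction genes were led by Gja1, the connexin of many endothelial and mesenchymal cells. It had 10322 and 6222 normalised counts in eGFP and 12348 and 8169 in mVEGF-C libraries, with replicate 1 the higher in both groups. The fold change was 0.33 (limma, adjusted p = 0.919). Gjb6 and Gja5 were lower in both mVEGF-C libraries than in either eGFP library, and neither was called. Gjb6, a connexin of astrocytes and leptomeningeal cells, had 1675 and 1228 against 247 and 651 (-1.84, limma adjusted p = 0.564). Gja5, a connexin of arterial endothelium, had 32.2 and 70.6 against 31.0 and 6.50. Per kilobase of exon, Gjb6 was 37.8% and 42.0% of the summed connexin level in eGFP and 7.1% and 23.2% in mVEGF-C libraries. These shares cover only the 4 connexins with a value. The glial marker Aqp4 was between 57.3 and 112 in all libraries.

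Integrin alpha chains ranged from abundant to barely present, and Itga5 and Itga9 were 2 of the 4 genes of the group with a fold change above 0 at an unadjusted p under 0.05. Itga5 (chromosome 15, 103344286 to 103366763, minus strand) encodes the alpha chain of the fibronectin receptor. It had 1311 and 1702 normalised counts in eGFP and 5900 and 9214 in mVEGF-C libraries. The groups were well apart, and each pair was tighter than the gap between them. The mean was 5.02-fold higher, at 7557 ± 2344 against 1506 ± 276 (SD, n = 2 each), a difference of 2.30 ± 0.81 (SE) on the log2 scale. It was not called in limma (adjusted p = 0.118), was called in DESeq2 (adjusted p = 0.0475), and stayed between 1.98 and 2.62 with any 1 library left out.

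Itga9 (chromosome 9, 118606690 to 118901003, plus strand) encodes a partner of Itgb1 that binds fibronectin, tenascin and other matrix proteins. It had 7154 and 4677 normalised counts in eGFP and 18427 and 10795 in mVEGF-C libraries, without overlap. The mean was 2.47-fold higher (14611 ± 5397 against 5915 ± 1752, SD, n = 2 each) a difference of 1.29 ± 0.57 (SE, limma adjusted p = 0.293). It stayed between 0.90 and 1.67 with any 1 library left out. Among the 12 lymphatic markers 8 stood above 0, the median was 0.19 and 0 were called.

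Of the remaining alpha chains, Itga1, a collagen receptor chain, had the highest count of the integrins, with 17216 and 34866 in eGFP and 28454 and 20249 in mVEGF-C libraries (fold change -0.03, limma adjusted p = 0.995). Itgav, a chain of receptors for vitronectin, had 7355 and 6005 against 9533 and 8974, without overlap (0.48, limma adjusted p = 0.87), and Itga4 and the laminin-binding Itga6 overlapped, at 0.36 and -0.43. Itga3, also a laminin-binding chain, had 872 and 733 against 185 and 216 (-1.99, limma adjusted p = 0.558), and its groups did not overlap. Itga2 was low in all libraries (16.0 to 128).

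Per kilobase of exon, the share of Itga5 among the alpha chains differed most in percentage points. It took 6.7% and 7.3% of the summed alpha-chain level in eGFP and 17.5% and 30.6% in mVEGF-C libraries. Itga6 took 14.9% and 22.0% in eGFP and 8.0% and 10.2% in mVEGF-C libraries, also without overlap. In ratio the small shares of Itga3 (3.86% and 2.71% against 0.473% and 0.621%) and Itgam (3.51% and 1.30% against 0.224% and 0.400%) differed more. The shares of Itga9 (23.5% and 12.8% against 35.0% and 23.0%) and Itga1 (23.4% and 39.5% against 22.3% and 17.8%) came close to each other or overlapped between the groups. Shares within a library depend on one another, and these were not tested.

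**Figure D4:**
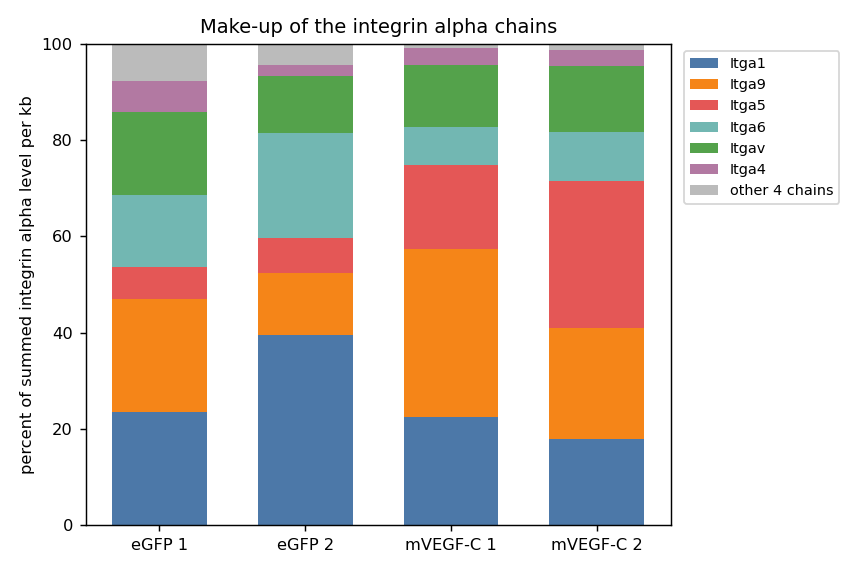
Stacked bars of the share (percent, vertical axis) of each integrin alpha chain in the summed alpha-chain level per kilobase of exon, for each library. The Itga5 part is 6.7% and 7.3% in the eGFP and 17.5% and 30.6% in the mVEGF-C libraries.

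Of the beta chains, Itgb1 (chromosome 8, 128685654 to 128733200, plus strand), the partner of most of the alpha chains above, had 10579 and 9440 normalised counts in eGFP and 6646 and 11095 in mVEGF-C libraries. The groups overlapped, and the fold change was -0.22, with a 95% interval from -1.32 to 0.88 (adjusted p = 0.953 in limma). It made up 73.6% and 77.9% of the summed beta-chain level per kilobase in eGFP and 68.1% and 69.1% in mVEGF-C libraries. Itgb3, a partner of Itgav, had 1259 and 1033 against 277 and 3652, so that the mVEGF-C pair spanned the eGFP pair. Itgb4, the partner of Itga6, lay between 2219 and 3338 in all libraries (-0.06). Itgb5, another partner of Itgav, had 595 and 234 against 1094 and 609, without overlap (1.13, limma adjusted p = 0.825). The low Itgb6 stood at 1.25 through mVEGF-C 1 alone (439 against 66.3 to 90.9). Itgb1bp1, a cytoplasmic protein that binds the Itgb1 tail, was low in mVEGF-C 2 alone, at 336 against 1043 to 1571.

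The leukocyte integrins Itgb2 and Itgam, chains of one receptor of myeloid cells, were both low and lower in the mVEGF-C libraries. Itgb2 had 191 and 268 normalised counts in eGFP and 4.27 and 38.1 in mVEGF-C libraries, the lowest value being 4 reads. The mean was 10.8-fold lower, a difference of -3.98 ± 1.31 (SE) on the log2 scale. Itgb2 was not called in limma (adjusted p = 0.0793), was called in DESeq2 (adjusted p = 0.0226), and ranged from -5.43 to -2.54 with 1 library left out; without mVEGF-C 2 it was called (limma, adjusted p = 0.0100). Itgam had 698 and 310 against 76.9 and 123 (-2.25, limma adjusted p = 0.501). Fermt3, the kindlin of blood cells, had 167 and 69.5 against 19.2 and 32.5 (-2.07). Itgad, a further leukocyte chain, overlapped between the groups, from 5.57 to 71.6.

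The sort had removed CD45-positive cells, and some leukocyte markers were also lower in the mVEGF-C libraries. Of 12 macrophage and myeloid markers 4 had a value, Itgam itself among them, with sums of 30124 and 36149 in eGFP and 29191 and 24747 in mVEGF-C libraries, nearly all of it Mrc1, which lymphatic endothelium expresses too. Fcer1g, a signalling chain of myeloid cells, had 1654 and 2572 against 273 and 899 (-2.05, limma adjusted p = 0.437), and Cx3cr1 stood at 0.44. Of 12 lymphocyte markers 3 had a value, Cd4, Cd3g and Cd3e, with sums of 146 and 176 in eGFP and 43.8 and 66.0 in mVEGF-C libraries. Cd3e was at 0 in mVEGF-C 1. The part of leukocyte RNA in the levels of Itgb2, Itgam and Fermt3 was not tested.

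**Figure D5:**
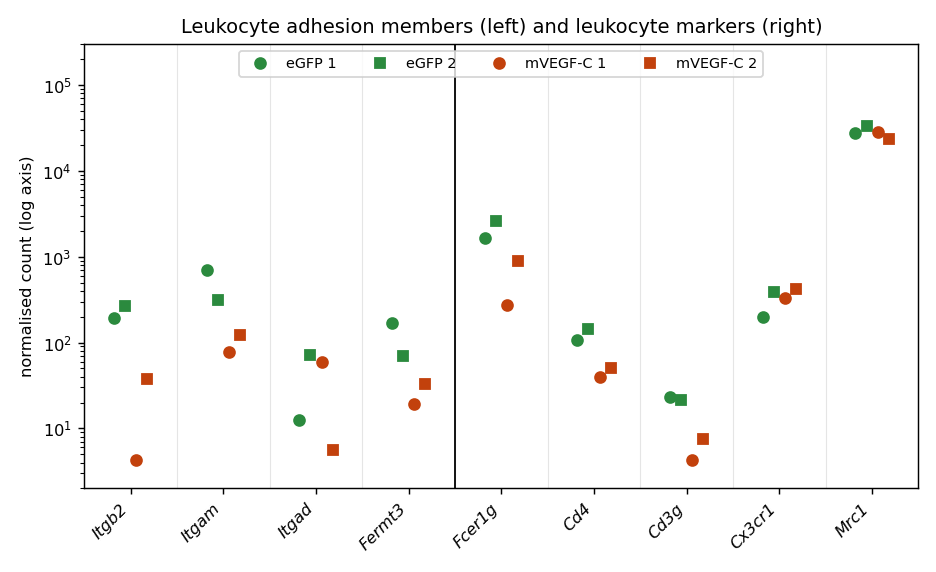
Normalised count (vertical log axis) of 4 leukocyte adhesion genes (left of the line) and 5 leukocyte markers (right) in each library. Itgb2, Itgam and Fermt3 and the markers Fcer1g, Cd4 and Cd3g are lower in both mVEGF-C (orange) than in both eGFP (green) libraries, while Itgad, Cx3cr1 and Mrc1 overlap.

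Of the 9 adaptors that join integrins to actin 0 were called. Tln1 (talin), which activates integrins by binding the beta tail, had 7654 and 4651 normalised counts in eGFP and 10226 and 12952 in mVEGF-C libraries, without overlap (0.95, limma adjusted p = 0.578). Fermt2, the kindlin of non-blood cells and partner of talin in this step, had 2545 and 1649 against 3532 and 4069, also without overlap (0.89, limma adjusted p = 0.802). Of the 9 adaptors 2 had groups apart with mVEGF-C above and 2 with mVEGF-C below, against 19.4% and 19.8% of all genes. The genes of the complex of Ilk with parvins had fold changes below 0. Parvb was lower in mVEGF-C, with 4711 and 4888 against 3793 and 1115 (-1.22, limma adjusted p = 0.633), while Ilk and Parva overlapped at -0.54 and -0.63. Pxn (paxillin), the most abundant adaptor, had 9165 and 16224 against 6875 and 12455, with replicate 2 the higher in both groups (-0.40, limma adjusted p = 0.884). Vcl (vinculin) lay between 2602 and 5188 (-0.26). Fermt1, the epithelial kindlin, was at 4.65 to 41.7.

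Of 53 further genes of focal adhesions and integrin signalling, a list likewise chosen with earlier results known, 38 were tested and 0 were called, with 14 above 0, 24 below and a median of -0.24. The smallest p belonged to Bcar1, a scaffold phosphorylated at focal adhesions, with 175 and 162 normalised counts in eGFP and 1740 and 662 in mVEGF-C libraries (2.67 ± 1.19, SE, limma adjusted p = 0.303). Second was Apbb1ip, which recruits talin in leukocytes, at 87.8 and 114 against 13.9 and 11.1 (-2.91 ± 1.31, SE, limma adjusted p = 0.311). Both had groups that did not overlap.

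The tetraspanins, which gather integrins in membrane domains, were low in eGFP 2. Cd9 had 5061 and 1772 normalised counts in eGFP and 4907 and 7257 in mVEGF-C libraries (0.99, limma adjusted p = 0.696, and 0.24 without eGFP 2). Cd151, which binds laminin-receptor integrins, had 5228 and 1449 against 4023 and 2900 (0.31). For Cd9 the value of eGFP 1 lay between those of the mVEGF-C libraries, and for Cd151 it lay above both.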

How the data were processed

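RNA-seq of 4 libraries was analysed, 2 per virus. Per the submitters' processing notes, FastQC, Trimmomatic, Salmon and DESeq2 were used with mm10; their versions, and the strand setting, were not given in the sources used here. Deposited values are a signal, normalised read counts: in each library all values (100%, tolerance 0.001) are whole multiples of 1 step, so whole reads were recovered by division. The limma 3.58.1 package (R 4.3.3) gave fold changes, using eBayes with a variance trend, on log2(normalised count + 1), two-sided, for 9063 genes with a mean of at least 10, adjusted over all of them. The fit had 2 residual degrees of freedom, and its variances came from the trend alone. Recovered reads were tested with edgeR 4.0.16 (quasi-likelihood) and DESeq2 1.42.0, which called 67 higher and 79 lower, and 289 higher and 329 lower. Scripts were checked on simulated data. Nothing in the labels says the libraries came from separate experiments, so p-values measure only the spread between these libraries. Exon lengths and gene coordinates, 1-based, are from GENCODE vM21 on GRCm38 (mm10). Genes given in full were those called, the 12 with the smallest p, the highest of each family and 12 fixed adhesion genes, of which Esam had no value; partner lists gave their 2 smallest p. Members, lists and rules were chosen with earlier results of these data known. Some genes of the group are counted but not reported here by name.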

Additional observations from a re-analysis of the deposited data

How the results depend on the processing

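A limit on the replicate spread is inferred from the values only, and 2 libraries per group allow no check of it; low genes rest on few reads. In DESeq2, 2 of the 70 genes were called higher (Itga5 and Pcdh12) and 3 lower (Pcdh1, Itgb2 and Jam3). Over all 9063 genes DESeq2 called 289 higher and 329 lower, more than limma did. Without a variance trend 0 of the 70 genes were called lower. With single libraries left out, the lone library of a group is assumed to vary like the other group. The median fold change ranged from -0.012 to 0.11 with single libraries left out. Over all genes, 75 higher and 119 lower calls became 45 and 75 with a minimum mean of 100, 15 and 26 without trend, 289 and 329 in DESeq2, and 79 lower in edgeR; with single libraries left out they were 5 to 104 higher and 0 to 188 lower. The replicate block gave 0 higher and 1 lower of the 70 genes and 74 higher calls in all; paired numbers shared no deviation (correlation 0.00013). Of the 23 genes given in full, 15 kept their sign in all alternatives. The others changed sign when single libraries were left out, with ranges of -0.43 to 0.23 (Ctnnd1), -1.25 to 1.52 (Cldn5), -0.039 to 0.69 (Gja1), -0.83 to 0.031 (Pxn), -1.44 to 0.10 (F11r), -0.54 to 0.48 (Itga1), -0.59 to 0.15 (Itgb1) and -1.39 to 0.12 (Pcdhgc4); the cause was not tested.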

Other observations

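Pcdh1 and Pcdh12, the protocadherin genes with the largest differences in opposite directions, are neighbours on chromosome 18, both on the minus strand and 55035 bases apart. The genes around them were looked at after these values were seen. The genes with a value between them are Dele1, a mitochondrial stress signalling gene, and the noncoding 1700086O06Rik, which overlap at one end on opposite strands, so that reads there may be shared. Dele1 had 1969 and 359 normalised counts in eGFP and 34.2 and 169 in mVEGF-C libraries (log2 fold change -3.44, limma adjusted p = 0.131), and 1700086O06Rik had 8.06 and 23.5 against 144 and 207 (3.54, limma adjusted p = 0.153). Rnf14, a ubiquitin ligase gene that starts beside Pcdh12 on the other strand, had 2759 and 1105 against 4743 and 6027 (1.61, limma adjusted p = 0.427). In each of these genes the groups did not overlap, in one direction for Pcdh1 and Dele1 and in the other for Pcdh12, Rnf14 and 1700086O06Rik, and Pcdh1 alone was called. In the whole table, 19.4% of genes were apart in the upward and 19.8% in the downward direction. The nearest protein-coding genes with a value on either side, Arap3 and Ndfip1, stood at -0.04 and 0.54.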
